A study of Mus musculus with 2 samples.

Results

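The 9 genes described here encode proteins that striated muscle makes in larger amounts when it is stretched, loaded or injured: *Csrp3*, *Lmcd1*, *Xirp1*, *Xirp2*, *Ankrd1*, *Ankrd2*, *Flnc*, *Nrap* and *Sprr1a*. They were chosen with their values on these arrays already known, mostly because they stood high among the differences between genotypes, so those differences are given as a description and were not tested. A member is a gene whose symbol is the only one its probe carries in the platform annotation, taken at its brightest probe. All 9 had such a probe, out of 22180 genes in all.

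Each muscle fibre is built of sarcomeres joined end to end at Z-discs, and force passes from the Z-disc to the membrane at costameres and to the tendon at the myotendinous junction. Most of the proteins in this set sit at or near these places. Several of them also move to the nucleus, so they are regarded as links between mechanical load and transcription. In skeletal muscle most are scarce or restricted at rest and appear in damaged, regenerating or overloaded fibres, and several are better known from the heart.

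RNA came from gastrocnemius muscle of homozygous *Mapk10*-/- mice and of WT mice, both on the C57Bl6/J background, 3 days after hindlimb ischemia was induced in the right leg. *Mapk10* encodes JNK3, a stress-activated kinase found mainly in neurons, and the deletion was present in every cell of the body. The labels give male mice of 8 to 12 weeks, name the tissue both as gastrocnemius alone and as gastrocnemius with thigh adductor, and state that RNA of 3 mice was pooled. The pools were read on MoGene 2.0 ST arrays from Affymetrix, 1 for *Mapk10*-/- and 1 for WT, with no replicate, no unoperated muscle and no p-value.

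Differences are log2 of the *Mapk10*-/- signal minus log2 of the WT signal, and signals are the deposited processed intensities on a linear scale. A fold of 1.5 in either direction is the size rule used throughout. The error available is the technical SD, which measures how far 2 probes of 1 gene disagree on these arrays. It was 0.30 for the brightest of 4 classes of genes and 0.27 for the class below it (log2 units, 414 and 287 genes). It leaves out the spread between mice, pools and arrays. The median signal over all probes was 41.2 on the *Mapk10*-/- array and 43.2 on the WT array. *Mapk10* itself was dim, with a signal of 17.7 in *Mapk10*-/- muscle and 25.2 in WT muscle, so it is a weak check of the labels. *Xist*, the long RNA that coats the silenced X in female cells, had a signal of 23.0 in *Mapk10*-/- muscle and 554.0 in WT muscle, although male mice are stated. Of the Y-linked genes, *Uty*, *Kdm5d* and *Eif2s3y* had higher signals in *Mapk10*-/- muscle, with log2 differences from 0.80 to 1.31. A difference in sex between the pools and the genotype cannot be told apart in any value below.

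All 9 genes were at least 1.5-fold higher in *Mapk10*-/- muscle and none was lower, beside 4.1% of all genes that were higher by this rule and 3.69% that were lower. Of the 9, 8 belong to the brightest class of genes (a mean signal of 142.3 or more), in which 7.9% passed the rule upward. Among the 500 genes nearest to each of these 8 in mean signal, the share ran from 9.8% for *Xirp1* to 14.2% for *Ankrd1* and *Flnc*. For *Sprr1a* it was 4.4%. With each array centred on its median those counts over all genes, 910 higher and 819 lower, became 1217 and 579. Of the 9, 8 were at least 2-fold higher, beside 0.825% of all genes, and 3 were at least 4-fold higher. The log2 differences ran from 0.93 to 2.78 with a median of 1.47, beside a median of 0.00 over all genes. The set was selected for such values, so nothing is read from the counts. The plot of signals shows the same direction for each gene, at signals from 43.4 to 3471.5.

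**Figure D1:**
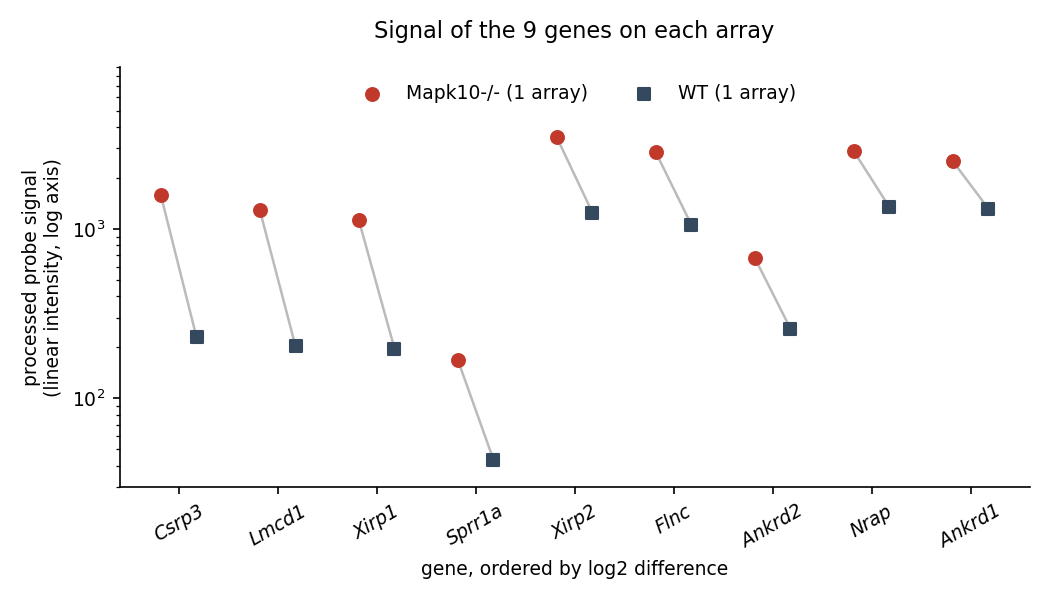
Processed probe signal (linear intensity, logarithmic axis) of the 9 genes on the *Mapk10*-/- array (red circles) and the WT array (dark squares), 1 array of pooled RNA each, ordered by log2 difference. The red circle is the higher point for every gene, by 6.88-fold for *Csrp3* at the left and by 1.91-fold for *Ankrd1* at the right.

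*Csrp3* (probe 17491368, chromosome 7) encodes muscle LIM protein, which binds α-actinin and telethonin at the Z-disc and also enters the nucleus, where it promotes myogenic transcription. Its signal was 1580.1 in *Mapk10*-/- muscle and 229.8 in WT muscle. This is a 6.88-fold higher signal (log2 difference 2.78, technical SD 0.30), the widest gap among the 9 genes. It ranked 2nd of 22180 genes by log2 difference, and none of the 500 genes nearest to it in mean signal differed by as much. The middle 90% of those 500 genes lay between -0.61 and 0.91.

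*Lmcd1* (probe 17461477, chromosome 6), also called dyxin, is a LIM protein that restrains the transcription factor GATA6 and takes part in hypertrophy of the mouse heart. Its signal was 1289.7 in *Mapk10*-/- muscle and 203.4 in WT muscle, 6.34-fold higher (log2 difference 2.66, technical SD 0.30). It ranked 3rd by log2 difference, next to *Csrp3*, the 1 gene that reached its difference among the 500 nearest in signal. *Csrp3* and *Lmcd1* differed from each other by 0.12, within the technical SD of such a gap, 0.42.

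The 250 bases before the *Lmcd1* start site are shown because they hold matches to 3 of the motifs searched. They lie at chr6:112273508-112273757 on the plus strand (RefSeq, GRCm38.p6), and capitals mark, in order, a CArG box, a myogenic E-box and a cAMP response element.
Lmcd1: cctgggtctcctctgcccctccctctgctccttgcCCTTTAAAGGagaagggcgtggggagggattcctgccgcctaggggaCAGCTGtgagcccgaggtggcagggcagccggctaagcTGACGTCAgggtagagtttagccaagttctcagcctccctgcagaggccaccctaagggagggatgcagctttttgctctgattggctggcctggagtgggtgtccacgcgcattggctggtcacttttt

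*Xirp1* (probe 17532264, chromosome 9) and *Xirp2* (chromosome 2) encode the Xin proteins, which bind and bundle actin through Xin repeats at intercalated discs and myotendinous junctions. Xin protein in mouse skeletal muscle marks damaged and regenerating fibres and activated satellite cells. *Xirp1* had a signal of 1126.0 in *Mapk10*-/- muscle and 197.1 in WT muscle, 5.71-fold higher (log2 difference 2.51, technical SD 0.30), and ranked 4th of all genes. Among the 500 nearest in signal 1 gene reached this difference, *Lmcd1*.

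*Xirp2* was the member with 2 probes. Its brighter probe read 3471.5 in *Mapk10*-/- muscle and 1249.6 in WT muscle, 2.78-fold higher (log2 difference 1.47, technical SD 0.30). Its dimmer probe read 50.5 in *Mapk10*-/- muscle and 32.1 in WT muscle, a log2 difference of 0.65. The probes agree in direction and pass 1.5-fold separately, but the mean of both gives 1.06. At the brighter probe the difference of *Xirp1* exceeded that of *Xirp2* by 1.04, against a technical SD of 0.42 for such a gap.

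The *Xirp2* window is shown because *Xirp2* is a known target of MEF2 in mouse muscle. It lies at chr2:67445752-67446001 on the plus strand (GRCm38.p6), and capitals mark an AP-1 match and then a MEF2 match.
Xirp2: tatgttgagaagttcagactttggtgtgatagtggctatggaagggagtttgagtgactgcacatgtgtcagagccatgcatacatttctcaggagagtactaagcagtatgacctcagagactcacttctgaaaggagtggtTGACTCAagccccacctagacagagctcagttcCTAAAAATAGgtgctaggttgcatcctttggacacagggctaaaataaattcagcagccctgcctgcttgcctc
No *Xirp1* window was printed.

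*Ankrd1* and *Ankrd2* (both on chromosome 19) encode ankyrin repeat proteins that bind the N2A region of titin, the spring of the sarcomere, and shuttle to the nucleus. *Ankrd1*, or CARP, is abundant in the heart and appears in skeletal muscle after injury or denervation, while *Ankrd2* is found in slow fibres and appears after stretch in mouse muscle. *Ankrd2* had a signal of 674.7 in *Mapk10*-/- muscle and 258.5 in WT muscle, 2.61-fold higher (log2 difference 1.38, technical SD 0.30). *Ankrd1* had a signal of 2515.3 in *Mapk10*-/- muscle and 1320.1 in WT muscle, 1.91-fold higher (log2 difference 0.93, technical SD 0.30). This was the smallest of the 9 differences, under 2-fold and at rank 227 of all genes. Of the 500 genes nearest in signal to *Ankrd1*, 28 (5.6%) differed by at least as much, and 5 of these were other members. The gap between both genes was -0.45 (*Ankrd1* minus *Ankrd2*), beside a technical SD of 0.42.

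*Ankrd1* is a widely used readout of YAP and TEAD activity, and its window is shown for that reason. It lies at chr19:36119845-36120094 on the minus strand (GRCm38.p6), and capitals mark both matches to the TEAD motif CATTCC, read here on the other strand as GGAATG.
Ankrd1: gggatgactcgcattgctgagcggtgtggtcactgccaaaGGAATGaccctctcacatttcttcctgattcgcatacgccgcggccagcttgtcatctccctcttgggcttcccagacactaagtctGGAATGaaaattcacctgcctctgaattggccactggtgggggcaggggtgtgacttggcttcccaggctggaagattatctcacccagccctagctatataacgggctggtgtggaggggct

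*Flnc* (probe 17456627, chromosome 6) encodes filamin C, the muscle filamin, which crosslinks actin at Z-discs and costameres, binds Xin proteins and gathers at sites of myofibrillar damage. Its signal was 2835.0 in *Mapk10*-/- muscle and 1058.0 in WT muscle, 2.68-fold higher (log2 difference 1.42, technical SD 0.30). *Nrap* (probe 17365803, chromosome 19) encodes nebulin-related anchoring protein, which ties terminal actin filaments to the membrane and serves as a scaffold in myofibril assembly. Its signal was 2882.9 in *Mapk10*-/- muscle and 1347.3 in WT muscle, 2.14-fold higher (log2 difference 1.10, technical SD 0.30). Among the 500 genes nearest in signal, 4 reached the difference of *Flnc* and 13 that of *Nrap*. Those 4 were *Csrp3*, the kinase gene *Mylk4*, the α-actinin gene *Actn2* and *Xirp2*. At this end of the array genes are few, so the 500 nearest spread over mean signals from 747.0 to 5018.8 for *Flnc*.

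*Sprr1a* (probe 17407412, chromosome 3) encodes a small proline-rich protein of the cornified envelope of skin. Outside skin it is known from injured rodent sensory neurons, where it promotes axon outgrowth, and from stressed rodent heart muscle cells. Its signal was 168.7 in *Mapk10*-/- muscle and 43.4 in WT muscle, 3.89-fold higher (log2 difference 1.96, technical SD 0.27). It was the dimmest of the 9 genes on both arrays, and in WT muscle it lay close to the median of all probes. No background was analysed, so this WT signal was not shown to be above it and the fold rests on that value. With 16 added to each value its difference was 1.64. None of the 500 genes nearest in signal differed by as much, and the middle 90% of them lay between -0.38 and 0.56.

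The *Sprr1a* window holds the most matches of the 8 genes and is shown for that reason. It lies at chr3:92485882-92486131 on the minus strand (GRCm38.p6), and capitals mark, in order, an E-box, an AP-1 match, another AP-1 match, a TATA box and another E-box.
Sprr1a: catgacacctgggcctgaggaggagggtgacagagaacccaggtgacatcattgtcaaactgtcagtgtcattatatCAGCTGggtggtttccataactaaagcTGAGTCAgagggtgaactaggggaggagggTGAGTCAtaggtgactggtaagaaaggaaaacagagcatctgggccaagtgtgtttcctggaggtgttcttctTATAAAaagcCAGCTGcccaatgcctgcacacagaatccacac

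Ordered by log2 difference, the genes ran *Csrp3*, *Lmcd1*, *Xirp1*, *Sprr1a*, *Xirp2*, *Flnc*, *Ankrd2*, *Nrap* and *Ankrd1*. Neighbours among the first 3 lay within 0.15 of each other, and neighbours among the last 5 within 0.29, both inside the technical SD of a gap (0.42). The gap below *Xirp1* was 0.56 and the gap below *Sprr1a* was 0.48, each larger than its technical SD of 0.40. *Csrp3* exceeded *Flnc* by 1.36 and *Nrap* by 1.68. With 16 added to each value the gap below *Sprr1a* was 0.17, inside that SD, and with the mean of probes *Xirp2* (1.06) came after *Nrap*. The order is a description of genes chosen for these values, shown in the plot of differences against signal.

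**Figure D2:**
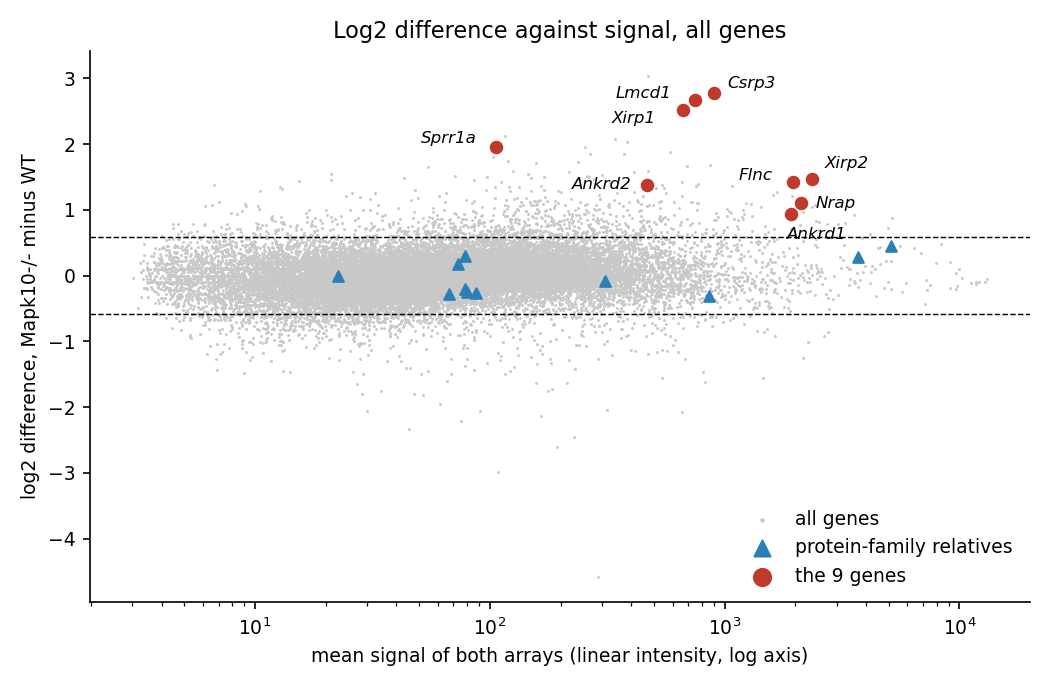
Log2 difference (*Mapk10*-/- minus WT) against the mean signal of both arrays (linear intensity, logarithmic axis) for all 22180 genes (grey), the 9 genes (red, named) and 11 relatives of the same protein families (blue triangles). Dashed lines mark 1.5-fold. The 9 genes lie above the upper line, and all 11 relatives lie between the lines, as most genes do.

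Relatives from the same protein families stayed within 1.5-fold. Of 11 measured, 0 passed the rule in either direction, beside 4.1% of all genes that were higher and 3.69% that were lower. A count of 0 among 11 is near those shares, so nothing is read from it. The median of the relatives was -0.08. *Csrp1* and *Csrp2*, which encode the other cysteine and glycine-rich LIM proteins, had log2 differences of -0.08 and 0.17. The signal of *Csrp1* was 302.2 in *Mapk10*-/- muscle and 319.3 in WT muscle. *Flna*, the filamin of most other cells, had 766.4 in *Mapk10*-/- muscle and 953.0 in WT muscle (log2 difference -0.31). *Ankrd23*, the third titin-binding ankyrin repeat gene, had 4055.4 in *Mapk10*-/- muscle and 3341.3 in WT muscle (0.28). *Neb*, the giant nebulin of the thin filament, had the highest value of the relatives at 0.44, *Nebl* was at -0.01 and *Lasp1* at -0.27. The PET-LIM genes related to *Lmcd1*, *Tes*, *Prickle1*, *Prickle2* and *Prickle3*, lay between -0.28 and 0.29. Each of these values lies below the 0.93 to 2.78 covered by the 9 genes. So do most genes on the arrays, since *Ankrd1*, the lowest of the 9 at 0.93, ranked 227 of 22180. The 9 genes were selected for high values, so the separation was not tested.

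Other skin genes were dim on both arrays. Of 17 measured small proline-rich and epidermal genes, none was at least 1.5-fold higher and 1, *Sprr2k* (-0.59, with signals of 10.7 in *Mapk10*-/- muscle and 16.1 in WT muscle), was lower. It lay within 1.5-fold after centring or quantile normalization (-0.53), after loess (-0.51), with 16 added (-0.27) and with dim values raised (-0.08). The median of the list was -0.04, and 16 of the 17 had a mean below the median gene. With 4.1% of all genes higher and 3.69% lower, the counts past the rule are near those shares, so nothing is read from them. *Sprr1b*, the closest relative of *Sprr1a*, had 40.4 in *Mapk10*-/- muscle and 41.95 in WT muscle, and *Sprr3* and *Sprr4*, which flank *Sprr1a* in the genome, were at 0.20 and -0.16. Summed over 7 measured keratinocyte markers the signal was 257.5 in *Mapk10*-/- muscle and 260.8 in WT muscle.

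Of 24 measured Z-disc and titin-linked genes 17 were at least 1.5-fold higher and none lower, with a median of 0.90 beside 0.00 over all genes. By this rule 4.1% of all genes were higher and 3.69% lower, and 7.9% of the brightest class were higher. The calsarcin gene *Myoz2* had a signal of 364.5 in *Mapk10*-/- muscle and 110.4 in WT muscle (log2 difference 1.72), and *Actn2*, which encodes an α-actinin that binds muscle LIM protein, had 2184.4 in *Mapk10*-/- muscle and 762.2 in WT muscle (1.52). The ubiquitin ligase gene *Trim55* was at 1.35 and *Cavin4*, a caveolar protein of muscle, at 1.34. *Tcap*, which encodes telethonin, was at 0.90 and *Ttn*, which encodes titin, at 0.44. *Fhl2*, another LIM protein known from the heart, had a difference of -0.03.

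Chaperones that handle filamin C and help assemble myofibrils were mostly past the rule. Of 16 measured, 11 were at least 1.5-fold higher and none lower, with a median of 0.96. The shares of all genes were 4.1% higher and 3.69% lower. The small heat shock gene *Hspb1* had a signal of 551.7 in *Mapk10*-/- muscle and 131.3 in WT muscle (log2 difference 2.07, or 1.29 as the mean of its probes). *Klhl40*, which stabilises thin filament proteins, was at 2.02, *Hspb8*, a partner of BAG3 in disposal of damaged filamin, at 1.27 and *Klhl41* at 1.23. *Bag3* was at 0.72. The general chaperones *Hspa8* and *Hsp90aa1* were at 0.06 and -0.05.

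Of 16 measured attachment genes of costameres and tendon junctions, 1 was at least 1.5-fold higher and none lower. Their median was 0.14. With 4.1% of all genes higher and 3.69% lower, these counts are near those shares, so nothing is read from them. The 1 past the rule was *Itga7*, the laminin-binding integrin chain of muscle, at 0.81. *Vcl*, which encodes vinculin, was at 0.24, *Tln1* at -0.01 and *Itgb1* at -0.08. *Jup*, which encodes plakoglobin, was at 0.57, *Tln2* at 0.42 and *Cdh15* at 0.41.

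Among fetal and load-induced muscle genes 5 of 10 were at least 1.5-fold higher and none lower, with a median of 0.78. Beside this, 4.1% of all genes were higher and 3.69% lower. Embryonic myosin *Myh3* was at 1.81, or 1.51 with 16 added to each value. Cardiac actin *Actc1* was at 1.58, the fetal light chain *Myl4* at 1.42 and the calcineurin regulator *Rcan1* at 1.26. *Timp1* and another myosin gene, *Myh8*, went the other way within 1.5-fold, at -0.34 and -0.28. The natriuretic peptide genes *Nppa* and *Nppb*, load markers of the heart, were dim on both arrays and had differences of -0.06 and 0.17.

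Of 16 target genes of YAP/TEAD and SRF, 3 were at least 1.5-fold higher and 1 lower, with a median of 0.09. Beside these counts, 4.1% of all genes were higher and 3.69% lower. *Ccn2* (1.02, but 0.46 averaged over its probes), *Ccn1* (0.98) and the tropomyosin gene *Tpm1* (0.71) were the higher ones. The smooth muscle calponin *Cnn1* was the lower one, at -0.66, or -0.50 with 16 added to each value. *Amotl2* and *Lats2*, further YAP targets, were at -0.12 and -0.01.

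Cytokines of the IL-6 family drive *Sprr1a* in cultured rodent heart cells, and they were listed together with their receptors and the STAT3 arm. RNA of these genes does not measure the activity of the pathway, and a link to the *Sprr1a* value was not tested. Of 11 measured ligands, receptors and STAT3-arm genes, none was at least 1.5-fold higher and 2 were lower, with a median of -0.21. The shares of all genes were 4.1% higher and 3.69% lower. *Socs3*, the feedback inhibitor of the STAT3 arm, had a signal of 90.8 in *Mapk10*-/- muscle and 177.4 in WT muscle (log2 difference -0.97, or -0.67 as the mean of its probes). *Il6* was dim, with 12.2 in *Mapk10*-/- muscle and 19.8 in WT muscle (-0.70, or -0.11 with dim values raised). *Osmr* was at -0.55, *Il6st* at -0.40, *Lifr* at 0.14 and the ligand *Clcf1*, the highest of the list, at 0.35.

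Of 8 measured genes that axon injury is known to induce, 1 was at least 1.5-fold higher and 1 lower, with a median of -0.10. Beside 4.1% of all genes higher and 3.69% lower, nothing is read from a count of 1 in so short a list. *Sox11* was at 0.59, or 0.46 with 16 added to each value, and *Gap43* was at -0.64, but -0.58 after centring, -0.57 after loess or quantile normalization and -0.43 with 16 added. *Gal* was at 0.58 and *Atf3* at 0.42.

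**Figure D3:**
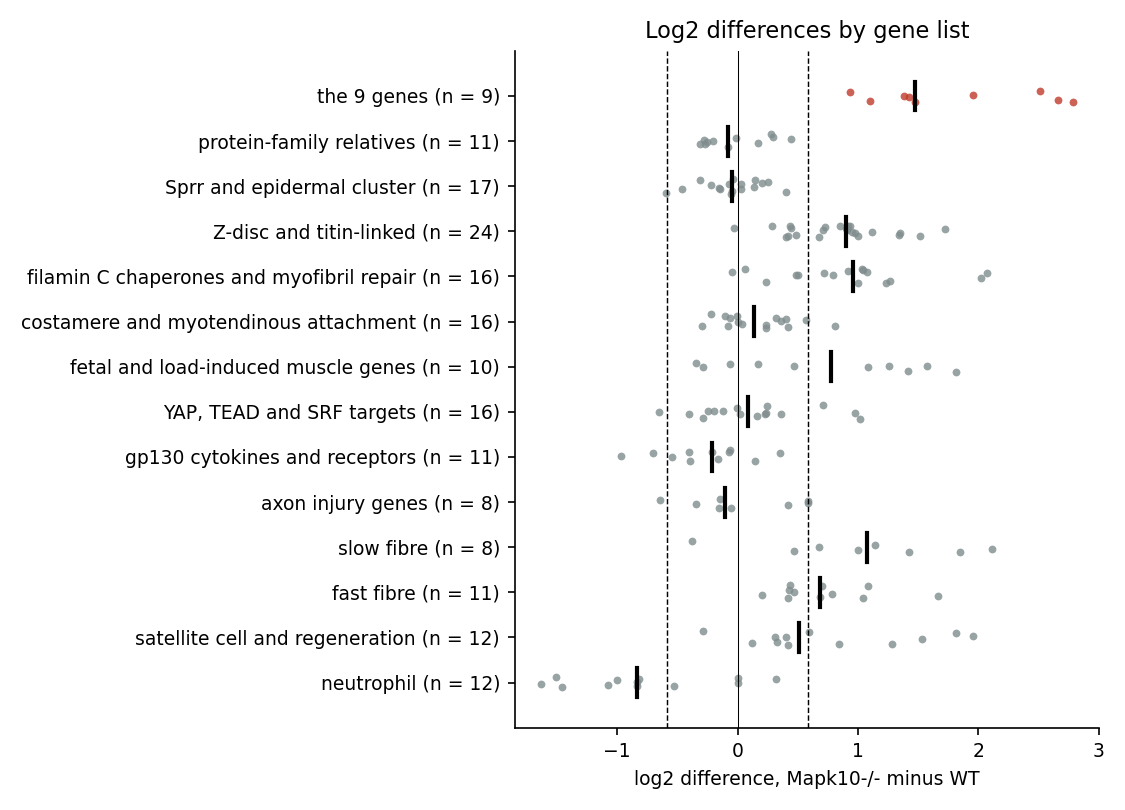
Log2 difference (*Mapk10*-/- minus WT) of each measured gene, by list, with the number measured in brackets. Each point is 1 gene, black bars are list medians and dashed lines mark 1.5-fold. The median is 1.47 for the 9 genes, 0.96 for the filamin C chaperones, 0.90 for Z-disc genes, 1.07 for slow fibre markers and -0.84 for neutrophil markers.

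Markers of muscle fibres and of infiltrating cells differed between the same arrays. For each count that follows, the shares over all genes were 4.1% higher and 3.69% lower. Summed over 8 slow fibre markers the signal was 3524.1 in *Mapk10*-/- muscle and 2170.9 in WT muscle, with 6 of 8 at least 1.5-fold higher and a median of 1.07. Over 11 fast fibre markers the sums were 45566.4 in *Mapk10*-/- muscle and 32344.8 in WT muscle, with 6 of 11 higher and a median of 0.69. Of 12 satellite cell and regeneration markers 6 were higher, with a median of 0.51 and sums of 7556.9 in *Mapk10*-/- muscle and 5090.3 in WT muscle. Of 12 neutrophil markers 8 were at least 1.5-fold lower and none higher, with sums of 811.4 in *Mapk10*-/- muscle and 1614.3 in WT muscle. Of 11 macrophage markers 4 were lower and none higher, with a median of -0.24. Their sums were 14237.8 in *Mapk10*-/- muscle and 15081.2 in WT muscle. Single macrophage markers ran from *Cd163* (-1.28) and *Ccr2* (-1.14) to *C1qa* (0.25) and *C1qc* (0.43). Of 10 endothelial and of 5 Schwann cell markers 0 passed the rule either way. Of 8 fibroblast, 7 smooth muscle and 6 adipocyte markers, 1 each was lower and 0 higher. Counts of 0 or 1 in lists this small are near the shares over all genes, so nothing is read from them. The smooth muscle and adipocyte counts changed by 1 under some ways of processing. The part of these differences in the values of the 9 genes was not tested, and in whole muscle fewer cells of a type and less RNA per cell cannot be told apart. The summed signal was 1.62-fold higher for slow fibre markers and 1.41-fold higher for fast fibre markers. Single fibre markers spread more widely. The lowest were *Tpm3* at 0.77-fold and *Myh4* at 1.15-fold (*Mapk10*-/- over WT), below the range of the 9 genes. The highest, *Myl3* at 4.33-fold, *Tnnc1* at 3.59-fold and *Myh2* at 3.17-fold, lay inside that range, which ran from 1.91-fold to 6.88-fold. *Myl3* was dim in WT muscle, with a signal of 43.5. Its log2 difference of 2.12 was 1.78 with 16 added to each value.

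The 9 genes lie on chromosomes 2, 3, 6, 7, 9 and 19. Of the 18 measured genes that directly flank them in the RefSeq order, none was at least 1.5-fold higher or lower. Over all genes 4.1% were higher and 3.69% lower, so that count is near those shares. The flanking genes had a median of 0.00 and a range from -0.42 to 0.58. The highest was *Pcgf5*, next to *Ankrd1*, with 191.8 in *Mapk10*-/- muscle and 128.5 in WT muscle, and it passed the rule after centring (0.65). *Zdhhc13* and *E2f8*, on either side of *Csrp3*, were at 0.09 and 0.47, and *Ccdc136* and *Atp6v1f*, on either side of *Flnc*, at 0.04 and 0.00.

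The genes closest in log2 difference to the median of the set, among 7231 others at least as bright as *Sprr1a*, were *Mstn* (1.46), *Otud1* (1.49), *Prkag3* (1.49), *Bhlhe41* (1.496) and *Enah* (1.51). *Mstn* encodes myostatin, the muscle growth inhibitor, with 407.8 in *Mapk10*-/- muscle and 148.1 in WT muscle. *Prkag3* encodes a muscle regulatory subunit of AMP-activated kinase. With 2 arrays this likeness is a nearness of a single number and nothing more.

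The start-site windows of the members shared no motif across the set. RefSeq windows were found for 8 genes, with 10 start sites, since *Csrp3* and *Flnc* have 2 each. The 9 motifs were searched on both strands in the 250 bases before each start site, and compared with 32851 windows of the same length over all genes. CATTCC, the TEAD motif, was found for *Ankrd1* and *Flnc* and in 12.6% of all windows. CAGCTG, an E-box bound by myogenic factors, was found for *Lmcd1*, *Nrap* and *Sprr1a* and in 13% of all windows. The MEF2 motif was found for *Xirp2* and in 2.92% of all windows. Another MEF2 pattern, CTA and TAG with any letters between them over the same length, was searched first and was found for *Flnc* too, and in 3.2% of all windows. TGANTCA, for AP-1, through which JNK kinases act, was found for *Sprr1a* and *Xirp2* and in 6.75% of all windows. TATAAA was found for *Ankrd2* and *Sprr1a* and in 12.4% of all windows. The CArG box, bound by SRF, and TGACGTCA, the cAMP response element bound by CREB1, were each found for *Lmcd1* alone among the members, and in 1.47% and 1.55% of all windows. GCGNGGGCG, for EGR factors, and TTCNNNGAA, for STAT factors, had no match among the members and matched 4.7% and 7.02% of all windows. Where matches of different motifs overlapped each was counted. A match is a run of letters and does not show that a factor binds there.

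**Figure D4:**
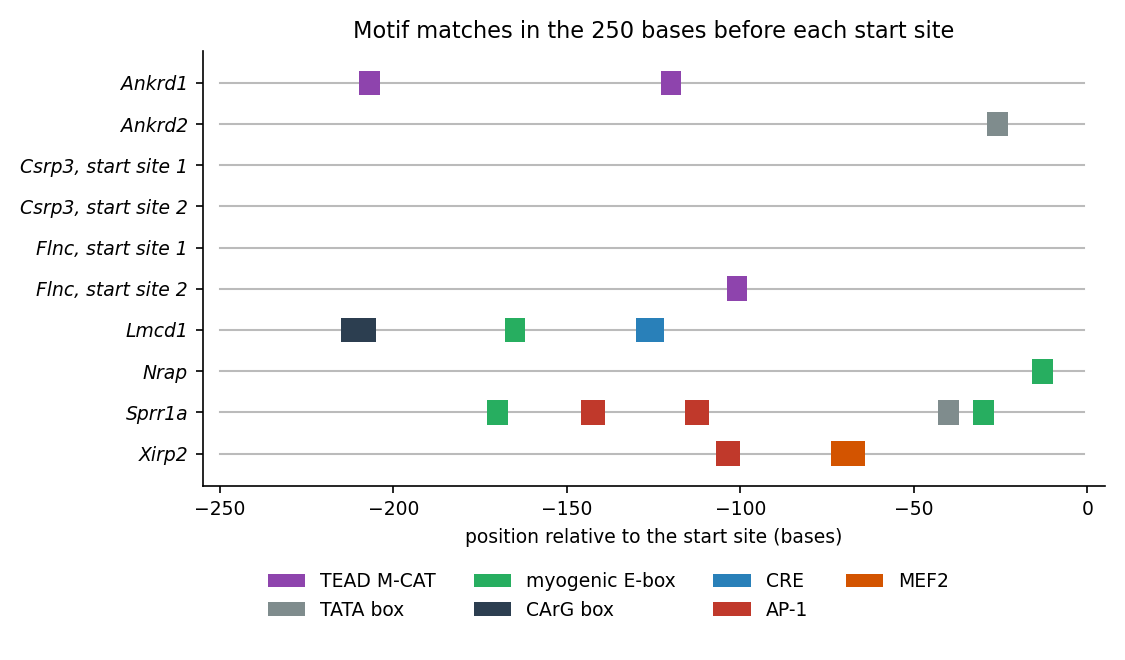
Matches to 7 motifs in the 250 bases before each of 10 RefSeq start sites (horizontal axis, bases from the start site) of 8 of the 9 genes, drawn to scale, with several start sites of a gene numbered by genomic position. *Sprr1a* holds 5 matches, *Lmcd1* holds 3 and both *Csrp3* windows hold none.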

How the data were processed

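RNA pooled from gastrocnemius muscle of 3 *Mapk10*-/- mice and of 3 WT mice was hybridised to 1 Affymetrix MoGene 2.0 ST array each. The authors deposited 1 processed intensity per probe on a linear scale; how it was background-corrected, summarised and normalized, and with which software, was not given in the sources used here, and no scanner values were used. Log2 of each intensity was taken with no pseudocount and no filter. Of 41345 probes 23521 carried 1 symbol, updated by gene identifier for 23328 through the RefSeq table of GRCm38.p6, and gave 22180 genes at their brightest probe. The technical SD is the SD of the difference between 2 probes of a gene divided by the square root of 2, over 968 genes (0.29) and in 4 classes of signal.

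The members, the 9 lists of related genes, the 11 lists of cell type markers and a list of sex-linked genes were chosen with earlier results of these data known. With 1 array per genotype no test was made, and precision is limited by the number of arrays. Named genes are the 9 members, their relatives, up to 4 of each list by size of difference, flanking genes and the 5 genes nearest to the median of the set; other genes named were chosen after their values were seen. Lists are described by counts past 1.5-fold and by their median. The alternatives were centring on the median, loess (span 0.3), quantile normalization, the mean of probes, values under the 25th percentile raised to it, a pseudocount of 16, probes with several symbols, 2-fold, only the brighter genes (a mean signal of at least the median gene), and 200 or 1000 neighbours in signal in place of 500. The code was tested on simulated data. Promoter windows are from RefSeq, GRCm38.p6, cut to the 250 bases before the start site. The MEF2 pattern was changed to its consensus after a first search with another one. That first pattern allowed any letters in the middle but was stricter at both ends. Tools were matplotlib 3.10.9, statsmodels 0.14.6, scipy 1.17.1, pandas 2.3.3 and numpy 2.4.6 under Python 3.11.15.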

Additional observations from a re-analysis of the deposited data

How the results depend on the processing

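With 1 array a genotype these settings vary the processing alone, and no background signal was analysed. No paired analysis was possible because a genotype holds only 1 array. The 9 genes kept their direction and stayed past 1.5-fold under all 7 alternatives computed for them, and their median ran from 1.42 to 1.54. Raising dim values and counting probes with several symbols left all 9 values unchanged, so these settings could not alter the outcome. The mean of probes changed only *Xirp2*. The 2 values that moved by more than the technical SD were *Xirp2* as the mean of its probes (1.06) and *Sprr1a* with a pseudocount of 16 (1.64). Over all alternatives the other values ran from 2.70 to 2.85 for *Csrp3*, 2.57 to 2.73 for *Lmcd1*, 2.42 to 2.58 for *Xirp1* and 0.91 to 0.998 for *Ankrd1*. No value changed sign among those past 1.5-fold.

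Over all genes 910 were higher and 819 lower. They numbered 572 and 263 with a pseudocount of 16, 183 and 135 at 2-fold, and 491 lower genes were left with dim values raised and 268 when only brighter genes were kept. The first 2 draw values toward 0 or raise the bar by construction, and the last tests fewer genes. Small lists moved by single genes. The 1 lower epidermal gene was 0 after centring, loess and quantile normalization, with dim values raised, with a pseudocount of 16 and among brighter genes. The 1 lower axon injury gene was 0 under the same settings except with dim values raised, while the 1 higher one was 2 after centring and 0 with a pseudocount of 16. Higher attachment genes numbered 2 after centring and with several symbols counted. The 2 lower genes of the IL-6 family became 1 with dim values raised, with a pseudocount of 16 and among brighter genes, and the 1 lower YAP, TEAD or SRF target became 0 with a pseudocount of 16 and among brighter genes. With only brighter genes the medians of fetal and load-induced genes and of axon injury genes were 1.26 and 0.42. Of the marker lists, smooth muscle had 1 higher gene after centring and 0 lower with a pseudocount of 16 and among brighter genes, adipocyte had 0 lower after centring and with a pseudocount of 16, Schwann cell had 1 higher after loess, and neutrophil had 5 lower among brighter genes beside 8. Among the 200 genes nearest in signal, 0% reached the difference of *Lmcd1* or *Xirp1*, beside 0.2% of 500.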

Other observations

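On the deposited scale 1086 of 41345 probes (2.63%) held exactly the same value on both arrays, to the last decimal given, up to a signal of 585.7 and with a median of 21.6. None of the 9 genes was among them, but *Atp6v1f*, which flanks *Flnc*, was. The sources used here do not say how such values arose.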
